A study of Mus musculus with 40 samples.

Results

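The Acot1 to Acot6 cluster on mouse chromosome 12 holds 6 genes for acyl-CoA thioesterases, and peaks of the nuclear receptor corepressors SMRT and NCoR and of the histone deacetylase HDAC3 were examined there in fed liver. Members were the peaks whose centre lay inside one of the 6 genes or within 50 kb of one. They numbered 10 of 10654 SMRT peaks, 21 of 35138 NCoR peaks and 15 of 14462 HDAC3 peaks, that is 46 of 60254 peaks in the 3 lists, around 6 of 21938 protein-coding genes. Peaks of different cofactors whose centres lay at most 200 bp apart were counted as 1 site, which gave 22 sites, numbered from site 1 to site 22 along the chromosome.

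Chromatin immunoprecipitation followed by sequencing (ChIP-seq) recovers the DNA to which a protein is crosslinked. The 3 peak lists came from livers of male C57BL/6 mice with free access to food. Their genotype was Bcl6 fl/fl, in which the gene for the repressor BCL6 is flanked by recombination sites but was not deleted, and the titles call them WT. Each list was called on the pooled libraries of 3 samples of that cofactor. The series has 40 samples in 18 groups, of which 9 stand behind the lists used here and 31 were not analysed here. The lists give positions without heights, scores or values per replicate, so no difference below has an error between animals and no test was possible. Intervals in brackets are exact (Clopper-Pearson) 95% binomial intervals, which cover counting error only, and neighbouring peaks are not independent. The sequencing depth is not given in the sources used here, and what part depth has in the lengths of the 3 lists was not tested.

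Acyl-CoA thioesterases split acyl-CoA into a free fatty acid and coenzyme A, and so set how much activated fatty acid is available for oxidation or lipid synthesis. Acot1 encodes a cytosolic enzyme, Acot2 a mitochondrial one, and Acot3, Acot4, Acot5 and Acot6 encode peroxisomal forms. The cluster arose by tandem duplication, and several of its genes are known targets of PPARα, the nuclear receptor that turns on fatty acid oxidation in fasted liver. SMRT and NCoR are related scaffold proteins that bind transcription factors and hold HDAC3, which removes acetyl groups from histones and is activated by them.

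All 6 genes lie on the + strand of GRCm38 (the assembly that mm10 names), in the order Acot2, Acot1, Acot4, Acot3, Acot5, Acot6. Acot2 spans chr12:83987861-83993873, Acot1 chr12:84009490-84018371 and Acot4 chr12:84038379-84048601. Acot3 spans chr12:84052144-84060402, Acot5 chr12:84069325-84076020 and Acot6 chr12:84100654-84111349. The window with 50 kb on either side runs from position 83937861 to 84161349. It also holds Riox1, Heatr4, Dnal1, Pnma1 and part of Elmsan1, which are no thioesterase genes, and Gm49366, a protein-coding model whose exons run from Acot4 into Acot3.

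Sequences are shown for the sites with all 3 cofactors that the results turn on, read on the + strand of GRCm38. Site 3 (chr12:83981638-83981866) lay upstream of Acot2, sites 6, 8 and 9 (chr12:84008391-84008619, chr12:84010325-84010553 and chr12:84011564-84011792) at the 5′ end of Acot1, and site 11 (chr12:84032930-84033158) upstream of Acot4. Each is the NCoR interval, and capitals in site 3 mark a match to DR1, the direct repeat that PPARs and HNF4 bind, here 2 copies of AGGTCA 1 base apart with at most 2 mismatches.
Site 3: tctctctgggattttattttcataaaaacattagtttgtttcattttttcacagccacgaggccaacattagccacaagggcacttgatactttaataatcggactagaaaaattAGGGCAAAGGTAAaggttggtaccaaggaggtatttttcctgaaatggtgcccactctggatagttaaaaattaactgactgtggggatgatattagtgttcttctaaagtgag
Site 6: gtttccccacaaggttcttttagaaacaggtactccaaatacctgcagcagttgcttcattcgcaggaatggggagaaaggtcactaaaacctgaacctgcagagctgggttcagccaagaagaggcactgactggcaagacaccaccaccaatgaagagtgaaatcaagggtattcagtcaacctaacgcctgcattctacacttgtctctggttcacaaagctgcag
Site 8: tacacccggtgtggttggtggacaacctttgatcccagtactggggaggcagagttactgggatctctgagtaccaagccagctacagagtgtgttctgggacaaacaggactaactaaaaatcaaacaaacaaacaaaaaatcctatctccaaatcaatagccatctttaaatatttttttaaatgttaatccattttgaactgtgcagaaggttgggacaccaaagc
Site 9: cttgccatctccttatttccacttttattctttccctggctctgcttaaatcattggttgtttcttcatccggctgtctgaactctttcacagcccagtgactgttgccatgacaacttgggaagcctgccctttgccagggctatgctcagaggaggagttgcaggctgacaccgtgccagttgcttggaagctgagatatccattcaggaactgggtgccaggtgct
Site 11: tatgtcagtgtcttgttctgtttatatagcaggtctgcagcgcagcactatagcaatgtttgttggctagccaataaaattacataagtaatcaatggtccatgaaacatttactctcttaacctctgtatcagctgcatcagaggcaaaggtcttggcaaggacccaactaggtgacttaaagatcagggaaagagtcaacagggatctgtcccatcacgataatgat

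Promoter sequence is shown where peaks overlapped the RefSeq promoter stretch next to the gene start, which was the case at Acot1, Acot4 and Acot5. Site 4 upstream of Acot2 and site 16 upstream of a later Acot3 TSS lay outside the RefSeq stretches of these genes. Shown are the 250 bases before the RefSeq start of Acot1, Acot4 and Acot5 (GRCm38.p6, + strand), at chr12:84009252-84009501, chr12:84038129-84038378 and chr12:84069074-84069323. NCoR and HDAC3 intervals overlapped all 3, and SMRT intervals none. Capitals mark a C/EBP match (TTGTGCAA read on the - strand) at Acot1 and a DR1 match on the - strand at Acot4, whose last base is the one before the start of the transcript.
Acot1 promoter: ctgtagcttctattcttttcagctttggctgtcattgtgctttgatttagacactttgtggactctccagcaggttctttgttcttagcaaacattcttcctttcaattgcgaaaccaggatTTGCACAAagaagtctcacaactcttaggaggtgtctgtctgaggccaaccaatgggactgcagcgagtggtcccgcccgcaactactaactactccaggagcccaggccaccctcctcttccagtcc
Acot4 promoter: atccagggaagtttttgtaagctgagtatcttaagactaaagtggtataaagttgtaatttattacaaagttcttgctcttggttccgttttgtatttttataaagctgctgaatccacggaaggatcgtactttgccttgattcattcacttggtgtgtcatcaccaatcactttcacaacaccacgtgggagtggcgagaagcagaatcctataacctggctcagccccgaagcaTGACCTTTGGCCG
Acot5 promoter: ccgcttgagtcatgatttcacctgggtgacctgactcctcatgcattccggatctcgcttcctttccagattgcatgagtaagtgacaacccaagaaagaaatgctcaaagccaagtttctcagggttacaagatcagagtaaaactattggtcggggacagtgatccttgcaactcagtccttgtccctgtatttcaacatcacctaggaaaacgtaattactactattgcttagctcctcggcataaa

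The cluster was densely occupied. Per Mb, the window held 44.7 SMRT peaks against 4.02 over the known bases of the genome, which is 11.1 times as many. For NCoR the densities were 94 and 13.3 per Mb (7.08 times), and for HDAC3 67.1 and 5.46 per Mb (12.3 times). Most of the peaks lay between the start of Acot2 and the end of Acot6, which enclosed 8 of the 10 SMRT, 15 of the 21 NCoR and 12 of the 15 HDAC3 peaks. When the genome was divided into 11774 tiles of the window's length, 36 tiles (0.306%) held at least 21 NCoR peaks and 59 (0.501%) held at least 8 sites with all 3 cofactors. The median tile held 1 NCoR peak and 0 such sites, and the fullest tiles held 29 and 12. The window was chosen for its genes with earlier results of these data known, so these shares place it among the tiles and are no test.

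**Figure D1:**
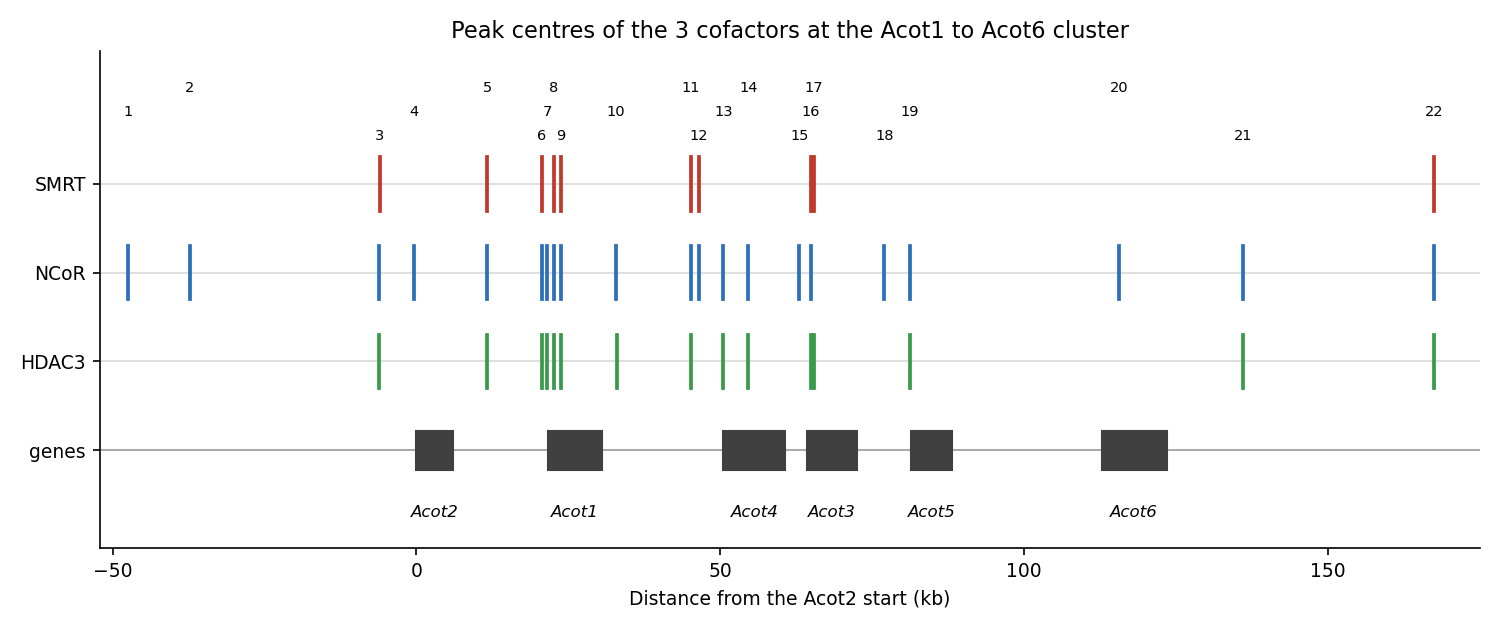
Peak centres of SMRT, NCoR and HDAC3 (vertical ticks, 1 row per list) and the 6 thioesterase genes (boxes) along the cluster, with the distance from the Acot2 start in kb on the x axis and site numbers above. Ticks are close together around the start of Acot1, upstream of and within Acot4, and at the 5′ end of Acot3, while Acot6 has a single NCoR peak inside it.

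All 3 cofactors met at 8 of the 22 sites. NCoR and HDAC3 without SMRT held 6 sites, NCoR alone 6, NCoR and SMRT 1, and SMRT and HDAC3 without NCoR 1. No site was held by SMRT alone (0 of 10 SMRT peaks, with an interval up to 30.8%) or HDAC3 alone (0 of 15, up to 21.8%), and these classes were also rare in the genome, at 3.35% and 2.95% of the respective lists. In the NCoR list, 38.1% of the cluster's peaks were shared by all 3 (8 of 21, 18.1 to 61.6) against 24.9% of all NCoR peaks, so the interval includes the genome's share. NCoR alone made up 28.6% (6 of 21, 11.3 to 52.2) against 56.1%, which lies above the interval. HDAC3 accompanied 66.7% of the NCoR peaks (14 of 21, 43 to 85.4) against 39.7%, also outside the interval, and SMRT accompanied 42.9% (9 of 21, 21.8 to 66) against 29%, which is inside it. Seen from the SMRT and HDAC3 lists the cluster was closer to the genome, as NCoR accompanied 9 of 10 SMRT peaks (90% against 95.7%) and 14 of 15 HDAC3 peaks (93.3% against 96.5%).

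**Figure D2:**
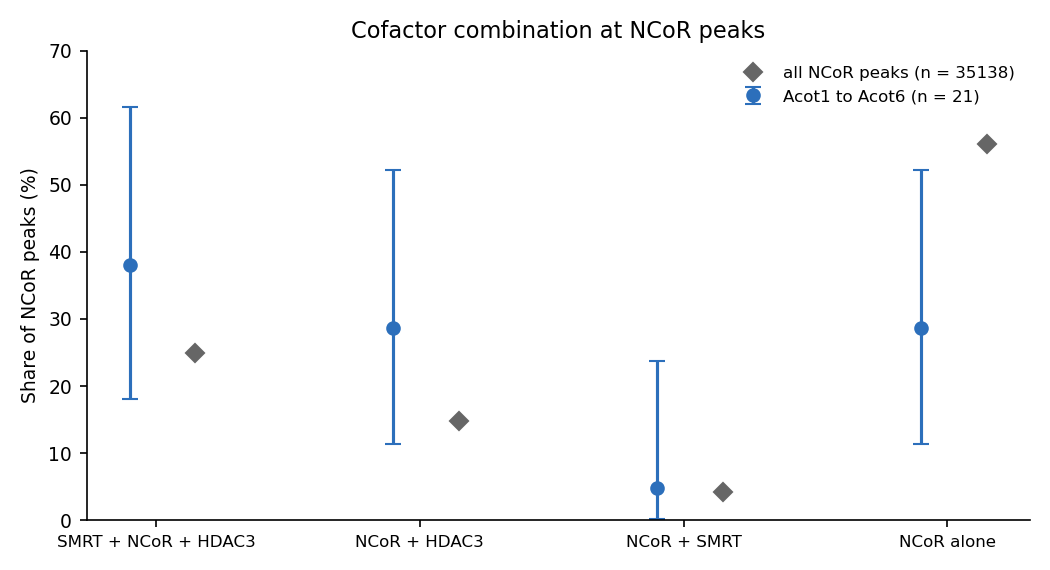
Share of NCoR peaks (%, y axis) in each cofactor combination (x axis) for the 21 peaks of the cluster (circles, bars are exact 95% binomial intervals) and for all 35138 NCoR peaks (diamonds). The diamond for NCoR alone, 56.1%, lies above the cluster's interval, which ends at 52.2%, and the other 3 diamonds lie within theirs.

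At most sites the lists placed their centres close together. The SMRT centre lay a median of 16 bp from the NCoR centre (1 to 47 bp, 9 sites) and the HDAC3 centre a median of 12.5 bp from it (0 to 123 bp, 14 sites). SMRT and HDAC3 centres were 3 to 93 bp apart with a median of 8 bp. Site 5 was the tightest of the sites with all 3 cofactors, with its centres within 5 bp, and site 10 had the widest gap, 123 bp between NCoR and HDAC3. Neighbouring sites were 508 to 34490 bp apart with a median of 8423 bp. The closest neighbours were sites 16 and 17 at Acot3.

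**Figure D3:**
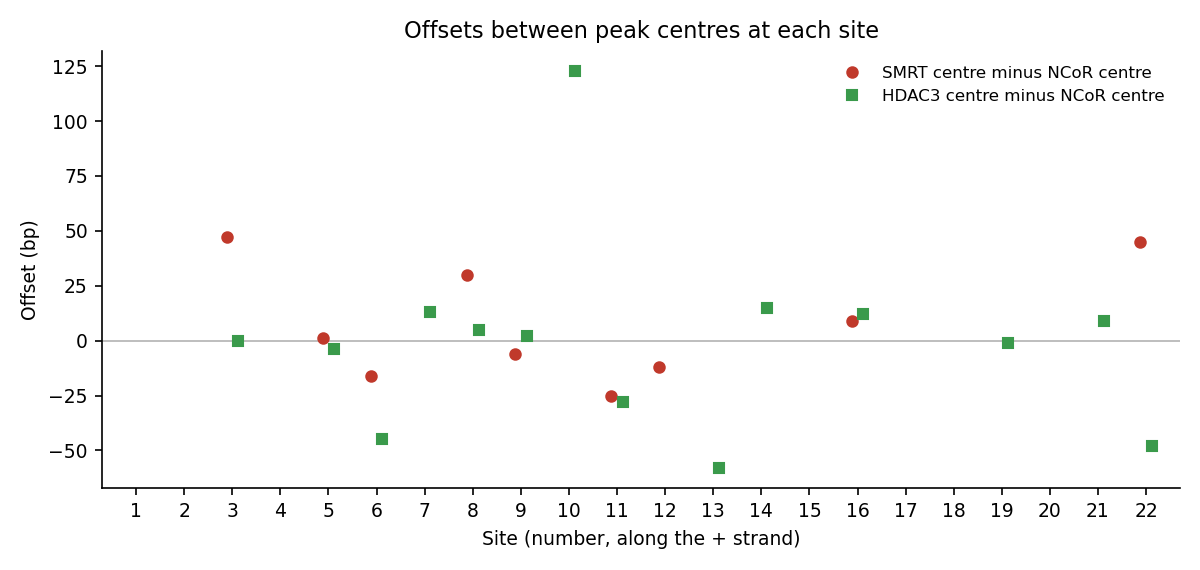
Offset in bp (y axis) of the SMRT centre (circles) and the HDAC3 centre (squares) from the NCoR centre at each numbered site (x axis). At 1 site, site 10, the HDAC3 centre lay 123 bp downstream, and all other offsets were between 58 bp upstream and 47 bp downstream.

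Peaks were then linked to genes through the closest transcription start site (TSS) of a protein-coding transcript. NCoR had a peak at 6 of the 6 thioesterase genes, against 49% of all protein-coding genes with at least 1 NCoR peak. HDAC3 was present at 4 of 6 genes against 29.2%, SMRT at 3 of 6 against 23.6%, and sites with all 3 cofactors at 3 of 6 against 20.9%. Genes of the cluster sit close together, so each was the closest TSS for 12.3 to 25.3 kb of sequence, and the median protein-coding gene for 47 kb. Of the 22 sites, 16 were nearest to a thioesterase gene, and 6 of those 16 carried all 3 cofactors.

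Acot1, the cytosolic enzyme, had the most peaks of the 6 genes. It was nearest to 6 NCoR, 6 HDAC3 and 4 SMRT peaks in 6 sites, of which 4 carried all 3 cofactors and 2 NCoR with HDAC3. At least 4 such shared sites were found at 2.3% of protein-coding genes, at least 6 HDAC3 peaks at 1.88% and at least 6 NCoR peaks at 7.72%. Site 5 lay 9937 bp upstream of the Acot1 start, between Acot2 and Acot1. Site 6 lay 985 bp upstream, within the promoter as defined here (1000 bp upstream to 100 bp downstream of a TSS). Site 7, with NCoR and HDAC3, was centred 130 bp upstream. Sites 8 and 9 lay 949 and 2188 bp downstream, both in intron 1, and site 10, with NCoR and HDAC3, 11237 bp downstream and past the end of the gene. Sites 6 to 9 thus ran from 985 bp before to 2188 bp after the start, with SMRT at 3 of the 4 and NCoR and HDAC3 at each.

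Acot2, the mitochondrial enzyme, had fewer peaks than its neighbour Acot1 by nearest TSS. Acot2 had the closest TSS for 12.3 kb of sequence and Acot1 for 25.3 kb. The part of this difference in the counts was not tested. Acot2 was the closest gene to 1 NCoR peak and to no SMRT or HDAC3 peak. That peak, site 4 (chr12:83987369-83987597), was centred 378 bp upstream of the start. Site 3, with all 3 cofactors, lay 6109 bp upstream of the Acot2 start but 3100 bp inside the neighbouring Heatr4, which is transcribed in the opposite direction, in its intron 1. The nearest-TSS rule therefore counted site 3 for Heatr4 and not for Acot2. Site 5, also with all 3 cofactors, lay between Acot2 and Acot1. It was 11692 bp downstream of the Acot2 start and 9937 bp upstream of the Acot1 start, so the rule counted it for Acot1.

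Acot4 and Acot3, which encode peroxisomal forms, lie 3542 bp apart and had 3 sites each by nearest TSS. At Acot4, site 11 carried all 3 cofactors 5335 bp upstream, site 12 NCoR and SMRT 3996 bp upstream, and site 13 NCoR and HDAC3 9 bp upstream of the start. Site 14 (chr12:84042358-84042586), with NCoR and HDAC3, lay 4093 bp downstream of the Acot4 start in intron 2, but the model Gm49366 has the nearer TSS. At Acot3, site 15 had NCoR alone 1249 bp upstream of the first TSS. Site 16 (chr12:84052678-84052906), with all 3 cofactors, was centred 648 bp downstream of the first TSS and 304 bp upstream of a later one. Its centre lay in the 5′ untranslated region of an Acot3 transcript that starts farther upstream.

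Site 17 at Acot3 was the one site without NCoR. SMRT (chr12:84053194-84053406) and HDAC3 (chr12:84053190-84053402) were centred 4 bp apart, 1156 bp downstream of the first Acot3 TSS and within a 5′ untranslated region. The combination of SMRT and HDAC3 without NCoR was rare in the genome. It described 96 of 10654 SMRT peaks (0.901%) and 85 of 14462 HDAC3 peaks (0.588%). The nearest NCoR peak was that of site 16, and sites 16 and 17 were 508 bp apart. The antisense transcript 4732463B04Rik, on the - strand, also overlaps both sites.

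Acot5 and Acot6 had fewer peaks by nearest TSS, and part of the sequence upstream of Acot6 has a second copy in the genome, as described below. Acot5 was nearest to site 18, with NCoR alone 4480 bp upstream, and to site 19, with NCoR and HDAC3 294 bp upstream. Acot6 had 1 site, site 20, with NCoR alone 2867 bp downstream of its first TSS, in the 3′ untranslated region of a short transcript. No SMRT peak was nearest to Acot5, Acot6 or Acot2, and no HDAC3 peak to Acot6 or Acot2. Of the other 6 sites nearest to no thioesterase gene, sites 1 and 2 were at Riox1 with NCoR alone, site 21 in intron 2 of Dnal1 with NCoR and HDAC3, and site 22 in intron 10 of Elmsan1, with its closest TSS at Pnma1, with all 3 cofactors. Sites 3 and 14, described above, make up the rest.

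**Figure D4:**
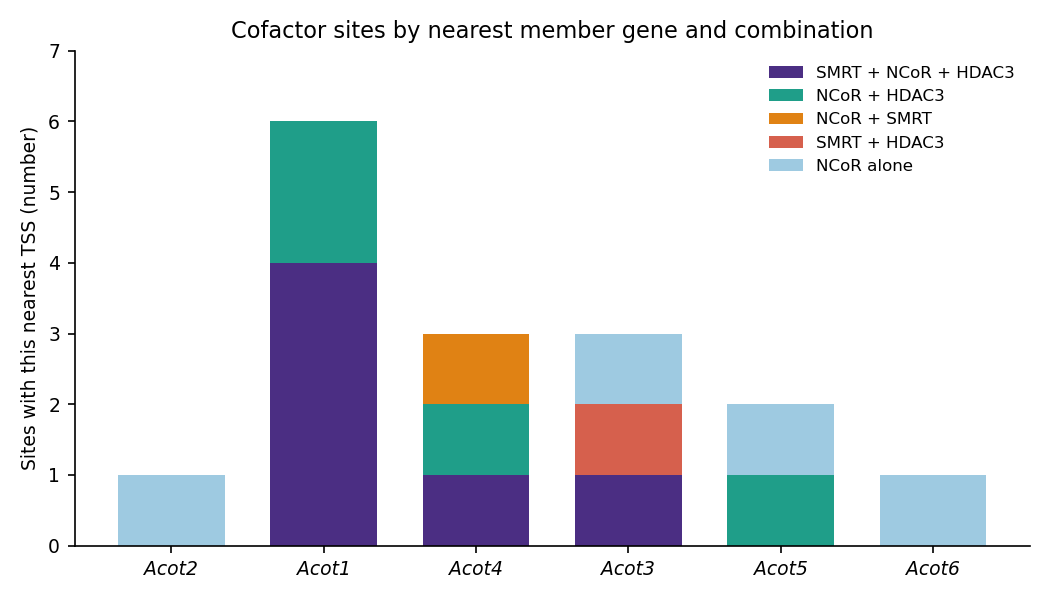
Number of sites (y axis) with their nearest TSS at each of the 6 genes (x axis, in chromosome order), stacked by cofactor combination. Acot1 has 6 sites, 4 of them with all 3 cofactors, and Acot2 and Acot6 have 1 site each with NCoR alone.

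No SMRT peak lay within 500 bp of the first TSS of a thioesterase gene, where sites 4, 7, 13 and 19 were found, at Acot2, Acot1, Acot4 and Acot5. Site 4 had NCoR alone and sites 7, 13 and 19 NCoR with HDAC3. The 6 sites with all 3 cofactors that were nearest to a thioesterase gene lay 648 to 9937 bp from its first TSS, with a median of 1586 bp. When every annotated protein-coding TSS in the window was counted, 7 sites lay within 500 bp of one and 2 of them carried SMRT. These were sites 16 and 17, which lay 304 and 204 bp from a later Acot3 TSS. Site 17 has no NCoR peak. Among NCoR peaks, SMRT accompanied 1 of 6 NCoR peaks within 500 bp (site 16) and 8 of 15 farther away. The genome had the same order, 15.1% of 3827 NCoR peaks within 500 bp and 30.7% of 31311 farther away. HDAC3 accompanied 4 of 6 and 10 of 15 in the window, against 27.8% and 41.2% in the genome.

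For comparison, a list of 12 other genes was set with earlier results known: Acot7 to Acot13, Them4, Them5, Baat, Acnat1 and Acnat2. Their sequences were not compared with those of the cluster. NCoR had a peak at 10 of the 12, SMRT at 9, HDAC3 at 8, and 8 had at least 1 site with all 3 cofactors, 10 sites in all. The shares over all protein-coding genes were 49%, 23.6%, 29.2% and 20.9%, respectively. The 12 genes were the closest TSS for 9.54 to 1140 kb of sequence, against 12.3 to 25.3 kb in the cluster, and the part of this difference in the counts was not tested. Acot12, a cytosolic enzyme that hydrolyses acetyl-CoA, had 7 NCoR peaks and 3 such sites. Acot9 and Acot10 had no peak of any list. Acot1 with its 4 shared sites was above each of the 12 in that count. Another tandem array of PPARα target genes, the 8 Cyp4a genes for fatty acid ω-hydroxylases on chromosome 4, held 6 SMRT, 16 NCoR and 9 HDAC3 peaks in 480 kb by the same rule. That is 33.4 NCoR peaks per Mb against 94 at the thioesterase cluster, and the share with all 3 cofactors was 37.5% (6 of 16, 15.2 to 64.6). Reads that mapped to more than 1 place were discarded by the authors. Repeated sequence was not measured at the Cyp4a genes, and its part in the difference in density was not tested.

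The study designed 4 ChIP-qPCR amplicons at these genes, and each fell on a site. The paper describes its ChIP-qPCR regions as shared by BCL6 and PPARα, and measured BCL6, PPARα and the related receptor PPARδ there. It also reports that most BCL6 sites overlap SMRT, NCoR or HDAC3 sites. The amplicons are therefore no independent evidence for the sites of these cofactors. The Acot2 amplicon (chr12:83981710-83981810) lay within site 3, 8 bp from its centre, so its position is 6101 bp upstream of Acot2 in intron 1 of Heatr4. An Acot4 amplicon (chr12:84033026-84033140) lay within site 11, with all 3 cofactors. Another Acot4 amplicon (chr12:84042445-84042528) lay within site 14, with NCoR and HDAC3, and is shown with its primer sites in capitals. The Acot3 amplicon (chr12:84053145-84053351) overlapped site 17, with SMRT and HDAC3 peaks and no NCoR peak, and its primers are shown 5′ to 3′.
Acot4 amplicon in site 14: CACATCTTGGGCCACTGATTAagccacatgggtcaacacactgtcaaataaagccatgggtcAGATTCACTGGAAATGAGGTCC
Acot3 forward primer: ggggcgtaaggagagtaagg
Acot3 reverse primer: taagcccgttagcgtttgtt

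Because the cluster is made of tandem copies, its sequence was compared with itself and with the genome. The reads were 75 bases long and reads that mapped to more than 1 place were discarded by the authors, so a stretch with a second copy yields fewer usable reads. Coding sequences of the 6 genes were 73.8% to 95.3% identical over 15 pairs, highest between Acot1 and Acot2. In the window, 12.1% of all 75-base stretches had a second copy elsewhere in the genome with at most 2 mismatches. In coding exons the share was 52.2% at Acot2 and 57.2% at Acot1, and between 25.5% and 33.5% at the other 4 genes, with every such copy inside the window. Promoters were far more distinct, with 0% at Acot1, Acot2 and Acot5, 0.876% at Acot3, 2.34% at Acot4 and 5.84% at Acot6. At 15 of the 22 sites no 75-base stretch had a second copy. The others had 1.53% to 55.7%, and site 10 was the one above 50%. Of 1475 other NCoR peaks on chromosome 12, 1398 (94.8%) had none. Upstream of Acot6, in the 500-base bins that start 102000 to 108000 bp from the Acot2 start, 50.6% to 95% of stretches had a second copy. The part of this in the low number of peaks nearest to Acot6 was not tested.

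**Figure D5:**
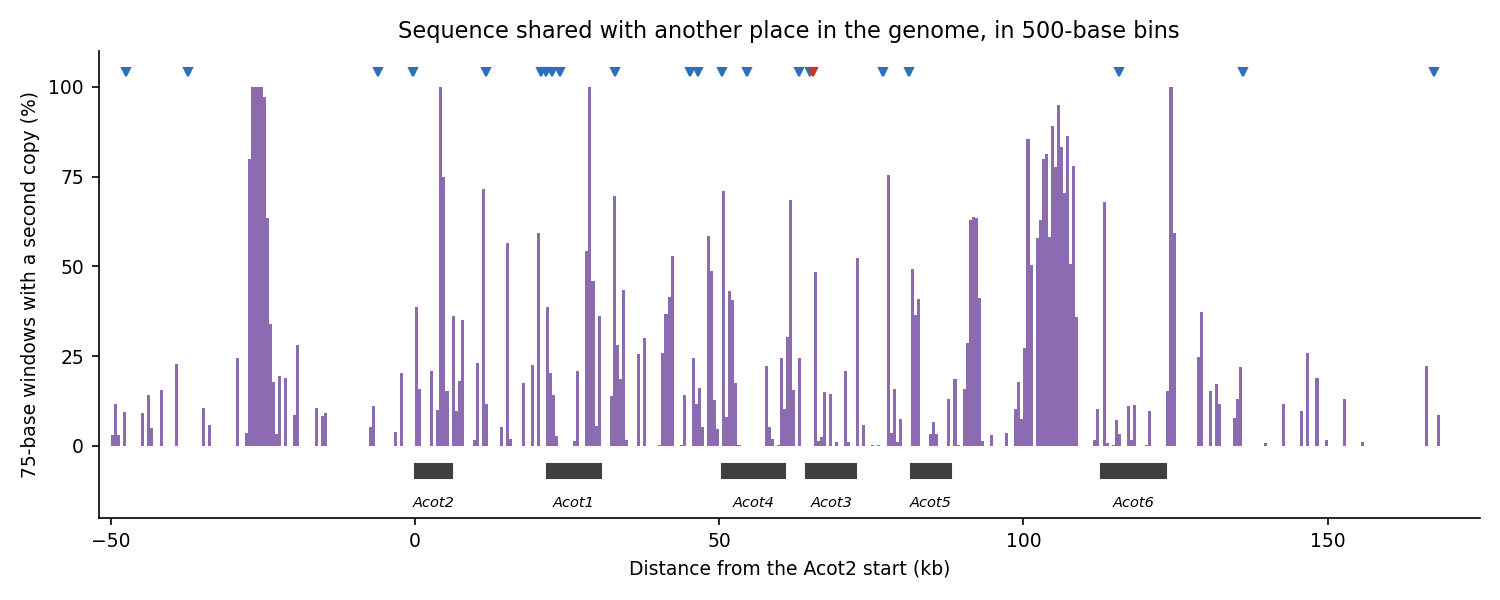
Share of 75-base stretches with a second copy in the genome (%, y axis) in 500-base bins along the cluster (x axis, kb from the Acot2 start), with genes as boxes below and sites as triangles above (red, site 17 without NCoR). Over the whole window the share is 12.1%, and bins at or near 100% occur upstream of Acot2, within Acot2 and Acot1, upstream of Acot6 and just past its end.

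Sites 5 and 10 sat on a duplicated stretch, the former downstream of Acot2 and the latter downstream of Acot1. The 2 copies, chr12:83998937-83999578 and chr12:84020237-84020871, aligned over 644 bases at 95.8% identity. Site 5 carried all 3 cofactors and site 10 NCoR and HDAC3. The end of the stretch that reaches into site 5 is shown in both copies, at chr12:83999439-83999578 and chr12:84020733-84020871 on the + strand, with the bases that differ in capitals. The 140 aligned columns hold 5 mismatches and 1 gap.
Site 5 copy: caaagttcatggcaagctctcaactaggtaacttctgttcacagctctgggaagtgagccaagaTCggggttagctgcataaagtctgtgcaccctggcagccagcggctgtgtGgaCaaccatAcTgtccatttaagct
Site 10 copy: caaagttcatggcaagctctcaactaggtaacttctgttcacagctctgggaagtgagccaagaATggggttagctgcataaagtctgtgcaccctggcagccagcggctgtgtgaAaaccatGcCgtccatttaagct

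The base of the second copy that lines up with the site 5 NCoR centre is 84020847. The HDAC3 centre of site 10 lay 3 bp from it, and the NCoR centre 120 bp upstream. In the 300 bp upstream of the matching base, 71.2% of 75-base stretches had a second copy at either site. In the 300 bp downstream the share was 0% at site 5 and 15% at site 10. The part of shared sequence in the offset of site 10, and in the missing SMRT call there, was not tested.

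A second pair of sites shared less. Part of site 11, upstream of Acot4, aligned over 118 bases at 81.4% identity with a stretch upstream of Acot3 whose end overlaps site 15. The base that matches the centre of site 11 lies 1402 bp upstream of the first Acot3 TSS. Site 11 carried all 3 cofactors and site 15 NCoR alone, centred past the end of the aligned stretch. The 5′ end of Acot4 and that of Acot6 also aligned, over 547 bases at 97.1%. Within it, 59 bases of site 13 at the Acot4 start had a copy at 96.6% identity at the 5′ end of Acot6, where no list had a peak. On the Acot4 side the alignment starts at 84038426. That is past the NCoR centre of site 13 (84038370), its DR1 match and the end of its HDAC3 interval (84038418), so none of these was copied. The copy lies in the 500-base bin that starts 113000 bp from the Acot2 start, where 67.8% of read-length stretches had a second copy. The part of this in the missing calls at the copy was not tested.

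Matches to binding motifs were searched on both strands in 200 bp around each NCoR centre, and a match is a description of the letters and no evidence of binding. DR1 was matched at 4 of 21 NCoR peaks, 19% (5.45 to 41.9), against 12.9% of all NCoR peaks and 2.52% of all promoters in 200 bp windows. With at most 1 mismatch it was matched at 0 of 21, against 2.72% of all NCoR peaks. The matches with at most 2 mismatches were AGGGCAAAGGTAA at site 3, AGGTAAAGGGTCA at site 4 by Acot2, CGGCCAAAGGTCA at site 13 on the Acot4 start and AGGTCACAGAGCA at site 20 in Acot6. Of these sites, site 3 had all 3 cofactors, site 13 NCoR with HDAC3, and sites 4 and 20 NCoR alone. The BCL6/STAT motif, TTCNNNGAA, was matched at 4 of 21 peaks as well, 19% (5.45 to 41.9), against 7.07% of all NCoR peaks and 5.49% of promoters. In 100 bp windows it was matched at 0 of 21, against 3.47% of all NCoR peaks. The matches in 200 bp were at sites 1, 2, 14 and 16, and the match in site 16 (chr12:84052835-84052863, + strand, shown with 10 bases on either side) was the only one at a site with all 3 cofactors.
Site 16 match: cattgactcaTTCTAGGAAaccttttcag

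In 200 bp windows, both intervals include the share over all NCoR peaks. The forkhead word TGTTTAC was matched at 0 of 21 peaks, which allows a share of up to 16.1%, against 7.74% of all NCoR peaks. The C/EBP words TTGCGCAA, TTGTGCAA, TTACGCAA and TTATGCAA were matched at site 7 only, 1 of 21 (4.76%) against 5.51%. The HNF6 words TATCGAT and TATTGAT were matched at site 8 only, 1 of 21 against 6.88%. The estrogen-related receptor word TCAAGGTCA was matched at 0 of 21 against 1.35%. None of these words or repeats was matched at sites 5, 6, 9 and 11, which carried all 3 cofactors near Acot1 and Acot4.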

How the data were processed

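ChIP-seq of SMRT, NCoR and HDAC3 was analysed from 3 peak lists, with 9 samples in 3 groups. Per the study's methods, the authors aligned single-end 75-base reads to mm10 with Bowtie, kept unique reads, called peaks with HOMER on the 3 pooled replicates against input, and kept peaks that passed DESeq2. The deposited values are positions (chromosome, start, end) with no counts or scores, and the depth is not given in the sources used here. Genes came from GENCODE vM21 basic and the sequence from GRCm38. Peaks within 50 kb of Acot1 to Acot6 were classed by partners with centres within 200 bp and assigned to the nearest protein-coding TSS. Named were the 6 genes, the nearest genes of peaks in the window, and 12 fixed genes for comparison. Members and lists were chosen with earlier results of these data known. The sequences of 75-base stretches were searched in the whole genome. Classing, motif search and copy search were tested on simulated data. RefSeq promoters were matched for 5 of the 6 genes. Python 3.11.15, NumPy 2.4.6, SciPy 1.17.1 and BLAST+ 2.17.0 were used.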

Additional observations from a re-analysis of the deposited data

How the results depend on the processing

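Across 20 results, 51 of 58 alternative values stayed within 1.5 times the reported count or within its interval, and 7 moved. Without the flank of 50 kb, the peaks inside the 6 genes fell to 4 SMRT, 5 NCoR and 5 HDAC3. The share of NCoR peaks with a DR1 match was 0% with at most 1 mismatch and 42.9% with at most 3 (2.72% and 42.2% of all NCoR peaks). In 100 bp windows the BCL6/STAT share was 0% (3.47% of all). Counting exact copies only, 5.51% of 75-base stretches in the window had a second copy. The share of NCoR peaks with all 3 cofactors stayed at 38.1% under each partner distance tried. It was 41.2% with a flank of 10 kb and 35.7% with 100 kb. Without a flank it was 60%, but of only 5 NCoR peaks. The shared sites per gene were unchanged under each TSS set and partner distance tried. No paired analysis was possible because the positions were set on 3 pooled libraries and come without values per library. For the same reason no replicate could be left out. The depth behind the lists was not given, so a site missing from a list cannot be told apart from one below its detection limit.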
